A study of Mus musculus with 10 samples.

Results

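Translation efficiency (TE) before any depolarization was described in the 3 untreated cultures of a series that holds 10 libraries, of which 6 are from untreated cells. The cells came from the cortex of newborn (P0) FVB mouse pups of both sexes and were kept for 7 days in culture, where neurons grew together with glia. They received no KCl, and cycloheximide was added for 7 min before lysis to hold ribosomes on the mRNA. From each lysate 1 portion was taken for RNAseq, which measures transcript abundance, and the remainder for ribosome footprinting (RF), which measures ribosomal occupancy. The other group, 2 cultures of the same kind given 55 mM KCl for 3 h and then cycloheximide, is used here only for a comparison of TE at the end. A further KCl culture was left out by the authors for its small library.

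TE is the density of footprints on the coding sequence (CDS) divided by the density of RNAseq reads on the transcript, and it estimates how many ribosomes an average copy of an mRNA carries. Ribosomes load at the 5′ end, scan through the 5′UTR to a start codon and leave at the stop codon, so that the sequence around the start codon, upstream AUG triplets and proteins bound to the 5′UTR are textbook points of control. Neurons and glia are known to store mRNAs in a repressed state, for example in dendrites or in myelin-forming processes. TE was the CDS footprint RPKM (reads scaled to the length of the region and to the total counted reads) over the RNAseq RPKM of the whole transcript in the same culture. A transcript was measured when both RPKM values were at least 10 in at least 2 cultures. This held for 6717 transcripts of 4067 genes, out of 13027 genes with a counted coding transcript. Each gene was represented by its measured transcript with the most RNAseq reads, and 1512 genes (37.2%) had more than 1 to choose from. Lats2 lay just inside the limit, at 10 RPKM in the lower of both assays, and Hdac5 just outside, at 9.999.

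The libraries held between 3056286 and 3260280 RNAseq reads and between 1463654 (culture 3) and 7719915 (culture 1) footprints. The median measured gene had 398 CDS footprints in culture 1 and 341 in culture 2, but only 73 in culture 3, where 7.84% of genes had fewer than 20. Markers of neurons and of several other cell classes were present. Of the counted markers, 12 of 22 for neurons, 17 of 18 for astrocytes and 13 of 17 for the oligodendrocyte lineage were measured. It was 5 of 12 for microglia and 5 of 16 for endothelial, mural and fibroblast cells, beside 4067 of 13027 over all genes. The 5 of the last list were mural or fibroblast genes, and none was an endothelial marker. The 5 genes with the most RNAseq reads were Apoe, Gfap, Cst3, Vim and Tmsb4x. Gfap, the intermediate filament of astrocytes, alone had 13577, 17964 and 16240 RNAseq reads in cultures 1 to 3. In bulk cultures TE averages over these cell classes.

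TE had nearly the same scale in the 3 cultures. The median gene had a TE of 1.71 in culture 1, 1.69 in culture 2 and 1.62 in culture 3. Because both assays are scaled to their own totals, only a TE relative to the median gene can be read. The central 95% of genes lay between 0.433 and 6.16, a 14.2-fold span, and the highest mean TE exceeded the lowest by 809-fold. The standard deviation of TE over the 3 cultures was 16.1% of the mean for the median gene. Across the 4067 genes Pearson's r of log2 TE was 0.91 between cultures 1 and 2, 0.92 between 1 and 3, and 0.92 between 2 and 3. The genes share transcript length and sequence in all cultures, and these values are a description.

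Each gene was compared with the median gene by the quasi-likelihood test of edgeR across the 6 libraries, with culture as a block. A gene was called at a Benjamini-Hochberg adjusted p under 0.05 and a TE at least 2-fold from the median gene. This placed 604 genes (14.9%) above and 565 genes (13.9%) below. Of these, 412 and 365 lay at least 2-fold beyond the median gene in each of the 3 cultures. The distribution of TE and its agreement between cultures 1 and 2 are plotted here.

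**Figure D1:**
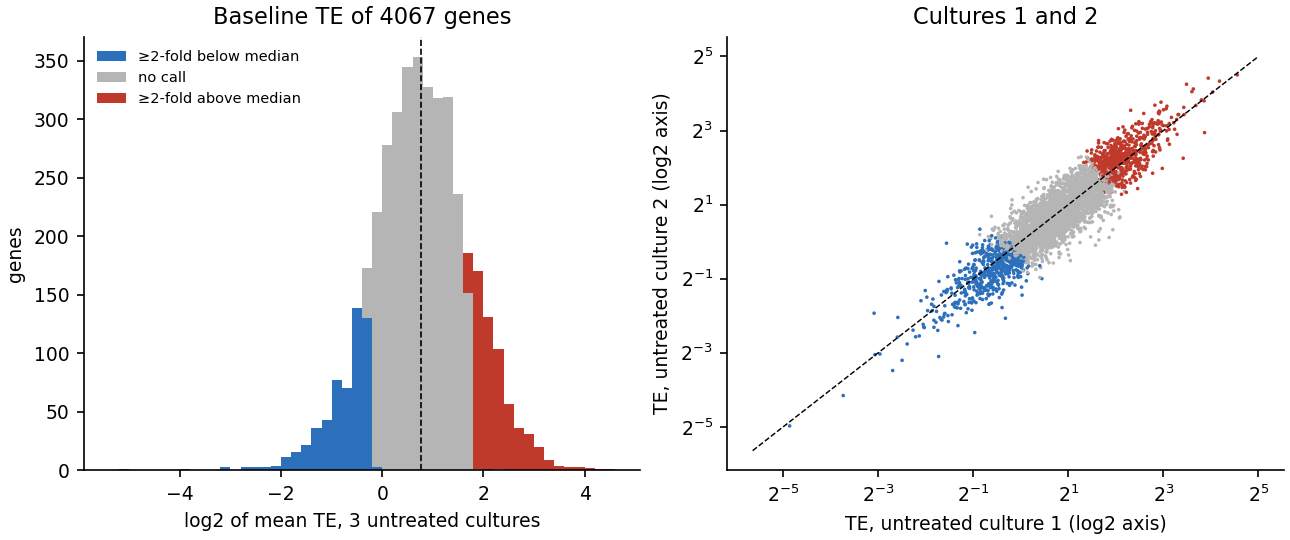
Left, number of genes by log2 of the mean TE of the 3 untreated cultures, stacked by call. Right, TE of each gene in culture 1 against culture 2 on log2 axes, with the line of equality; the 604 genes called above the median gene and the 565 called below sit at the ends of a single broad distribution.

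How RNAseq was counted changes part of these calls. RNAseq reads were not spread evenly over the transcripts, from which the authors had removed repeated (degenerate) sequence before alignment. The RNAseq density on the CDS was 0.853 times that on the whole transcript for the median gene. It was between 0.5 and 2 times in 3118 genes (76.7%), under 0.25 times in 255 genes and over 2 times in 152 genes. With the RNAseq reads of the CDS as denominator, called CDS-based TE below, 788 genes (19.4%) were above and 714 (17.6%) below the median gene among 4059 genes. Spearman's rho between both versions of TE was 0.62 across genes. Called on the same side by both were 309 genes above, which are 51.2% of the calls made with the whole transcript and 39.2% of those made with the CDS, and 336 genes below, 59.5% and 47.1%. Of the 565 genes below, 56 were above by the CDS-based TE, and of the 604 above, 9 were below. CDS-based TE is given below as log2 relative to its own median gene, for the extreme genes and for every other named gene whose call it changes, and its counts are given for most lists.

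**Figure D2:**
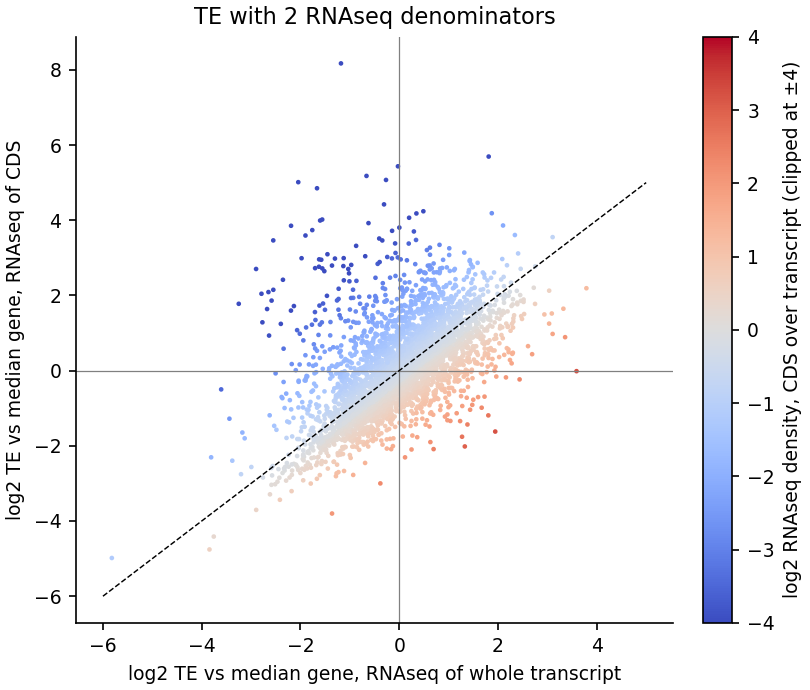
Log2 TE relative to the median gene with RNAseq of the whole transcript (x axis) and with RNAseq of the CDS alone (y axis), 1 point for each of 4059 genes. Colour gives the log2 ratio of RNAseq density on the CDS to that on the transcript; genes above the dashed line of equality have a low ratio (blue), genes below it a high ratio (red).

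Of the 15 genes of lowest TE named here, 10 were called with both denominators, and ferritin heavy chain had the lowest value. Sequence elements known to control some of these mRNAs are printed first, 5′ to 3′, from the mouse GRCm38 transcripts (GENCODE M21). The ferritin mRNA carries an iron-responsive element, a hairpin that iron regulatory proteins bind when iron is scarce. In the 5′UTR of Fth1 its core lies at chr19:9982733-9982760 on the plus strand. Capitals mark the bulged C and the CAGTGC loop.
Fth1: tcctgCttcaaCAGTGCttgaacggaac
The letters alone are not rare. C, any 5 bases and then CAGTG stood in 319 of 4019 measured 5′UTRs (7.94%) on the sense strand. Of these 319 genes 43 were called below and 50 above, beside 13.9% below and 14.9% above over all genes.
The Atf4 mRNA carries AUG triplets upstream of its CDS start. Those with the start at chr15:80255294-80255308, at chr15:80255573-80255587 and, across an exon border, within chr15:80255672-80256207 (all on the plus strand) are shown before the start of the Atf4 CDS itself at chr15:80256290-80256304. Capitals mark the base at position -3 and the AUG with the base at +4.
Atf4, first upstream AUG: ttttctCtcATGGgg
Atf4, second upstream AUG: gcggccAccATGGcg
Atf4, last upstream AUG: gcctaaGccATGGcg
Atf4, CDS start: ccccacAacATGAcc
The second opens a reading frame of only 3 codons, and the last a frame of 59 codons that ends after the CDS start.
Selenoproteins read a TGA stop triplet inside the CDS as selenocysteine. The triplet, in capitals, is shown for Gpx1 (codon 47, chr9:108339442-108339462, plus strand), Selenoh (codon 38, across exons within chr2:84670372-84670484, minus strand) and Selenow (codon 13, across exons within chr7:15920455-15922253, minus strand).
Gpx1: gcgtctctcTGAggcaccacg
Selenoh: tgtacgagcTGAcgcgtgtac
Selenow: tgtggagctTGAggctataag

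Fth1, the ferritin subunit that oxidizes and stores iron (chr19:9982646-9985098, 4 exons), had the lowest TE of all measured genes. Its TE was 0.0343, 0.0318 and 0.0201 in cultures 1 to 3, on 4957, 5985 and 5985 RNAseq reads but only 238, 228 and 34 CDS footprints. All 3 cultures lay below every other measured gene mean, and the log2 TE relative to it was -5.82 ± 0.15 (SE, adjusted p = 9.97e-302 by edgeR), a 56.5-fold lower TE. With CDS-based TE it was -4.98, where the RNAseq density ratio was 0.44. Footprint density on its 5′UTR was 1.98 times that on its CDS. The membrane receptor that brings iron into cells, Tfrc, lay at the other end. Its mRNA has iron-responsive elements in the 3′UTR, known to act on stability. Its TE was 7.41, 9.62 and 11.6, a log2 of 2.46 above the median gene and 1.86 with CDS-based TE. Hif1a, a hypoxia factor that was put with Fth1 and Tfrc in the list of iron-responsive element genes, had a TE of 5.12 ± 1.45 (SD, n = 3). Which mRNAs of this list carry a working element was not tested. Among the 6 measured genes of that list 2 were above and 1, Fth1, below, and 4 were above and 1 below by CDS-based TE.

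Atf4, a transcription factor of the integrated stress response whose upstream AUGs hold ribosomes back in unstressed cells, had a TE of 0.128, 0.122 and 0.0854. This was 14.4-fold below the median gene (log2 -3.84), and -4.76 with CDS-based TE, where the RNAseq density ratio was 1.48. Its 5′UTR carried 5.37 times the footprint density of its CDS. Atf5, a related factor with upstream AUGs, had a TE of 0.154, 0.0896 and 0.222 and 8.80 times the footprint density on the 5′UTR. The RNAseq density on the Atf5 CDS was only 0.0923 times that on the transcript, and the CDS-based TE of -0.50 was not called. Of the 7 measured genes of the stress response list these 2 were below and none was above. The counts were the same by CDS-based TE, but not the genes, as only 1, Atf4, was below with both. Eprs, a tRNA synthetase, had the highest TE of the list, 3.05 ± 0.42.

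The selenoproteins split. Gpx1, which reduces peroxides, had a TE of 0.347, 0.224 and 0.258, Selenoh 0.330, 0.301 and 0.269, and Selenow, named here after its values were seen, 0.510, 0.182 and 0.396. All 3 cultures of each were at least 2-fold below the median gene. Their log2 values were -2.62, -2.47 and -2.33, and with CDS-based TE -3.29, -2.96 and -2.60. Txnrd1, a thioredoxin reductase whose selenocysteine codon is 498, close to the end of its CDS, had a TE of 3.18 ± 0.17, and Msrb1 2.03 ± 0.45. Neither was called, but both were above by CDS-based TE (1.35 and 1.67). Of 8 measured selenoproteins 3 were below and none above, and 4 were below and 2 above by CDS-based TE. An in-frame TGA was found in 12 of all measured genes (0.295%), of which 3 were called below and 1 above, beside 13.9% and 14.9% over all genes. These 12 include genes outside the selenoprotein list, among them the 1 called above.

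The other genes of lowest TE were less even with respect to RNAseq. Slc25a23, a mitochondrial ATP-Mg/phosphate carrier, had a TE of 0.119, 0.120 and 0.123, the tightest of this group. Its CDS-based TE was -2.31, against -3.81 with the whole transcript. Slc6a8, the creatine transporter, followed with 0.165, 0.167 and 0.146 (log2 -3.38, CDS-based -2.40). Vegfb, a growth factor of the VEGF family, had 0.216, 0.168 and 0.125, on 62, 38 and 5 footprints (-3.20 and -2.76). Trak1, which links mitochondria to kinesin, stood at -3.18 and -1.65, Tsc22d1, a leucine zipper regulator, at -3.13 and -1.80, and Kctd1 at -2.995 and -2.56. The uncharacterized gene 1700016K19Rik had 0.177, 0.108 and 0.0630, with only 7 footprints in culture 3 (-3.76 and -4.41).
Dbi, which binds acyl-CoA, had a TE of 0.118 and 0.113 in cultures 1 and 3 but 0.262 in culture 2, so the cultures differed by over 2-fold while all were low (log2 -3.44, CDS-based -1.28).
For a further 4 genes few or no RNAseq reads lay on the CDS. Where sequence removed before alignment lies in a CDS, its footprint density is too low as well, because annotated lengths were used. TE with the whole transcript cannot then be read. In CDS-based TE the length cancels, but this TE then rests only on the part of the CDS that was kept. Which genes this concerns was not tested. The RNAseq density on the CDS was 0.0158 times that on the transcript for Pkm, a glycolytic pyruvate kinase, and 0.0244 times for Zfp703, a zinc finger factor. Pkm went from a log2 of -2.90 to a CDS-based 2.70, and Zfp703 from -3.25 to 1.78. Cd24a, a surface glycoprotein (TE 0.0749, 0.0561 and 0.0748), and Atp5c1, a subunit of ATP synthase, had no RNAseq read on the CDS at all and no CDS-based TE.

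At the high end, Zwint, a kinetochore protein that is also abundant in brain, had the highest TE. It was 23.5, 22.7 and 23.5, with 1910, 1501 and 342 footprints on 121, 115 and 107 RNAseq reads. The 3 cultures were within a standard deviation of 0.488, and Zwint lay 13.8-fold above the median gene (log2 3.79 ± 0.15, adjusted p = 5.73e-133 by edgeR). Its CDS-based TE was 2.19. Atp6ap2, an accessory subunit of the proton pump that acidifies lysosomes and vesicles, was called by both denominators. Its TE was 13.9, 14.2 and 15.3, with log2 values of 3.11 and 3.55. Scarb2, a lysosomal membrane protein that delivers glucocerebrosidase, had 16.4, 16.4 and 17.8 (3.32 and 1.65). Ssr3, a subunit of the translocon-associated complex of the endoplasmic reticulum (ER), had 12.1, 16.6 and 12.99 (3.04 and 1.25).
Nsg1, an endosomal protein of neurons, had a TE of 14.5, 13.9 and 12.9 (3.04 and 2.13), and Chl1, an adhesion molecule of the L1 family, had 7.72, 13.6 and 13.3 (2.72 and 2.204). Culture 1 was the lowest of the 3 for Chl1 and the highest for Nsg1. Id4, which holds progenitor and glial transcription factors inactive, had 9.996, 10.8 and 13.9 (2.75 and 2.77). Ndfip1, an adaptor of ubiquitin ligases, was at 2.75 and 1.77.
For the other 5 genes RNAseq reads were denser on the CDS than on the transcript. The density ratio was 9.50 for Serbp1, an mRNA-binding protein, 4.33 for Tmem33, 3.72 for Txndc9, 3.42 for Ufm1, a ubiquitin-like modifier, and 3.04 for C1d. Serbp1 had a TE of 18.1, 20.2 and 22.7 but a CDS-based log2 of -0.01, and the CDS-based TE of the other 4 lay between 0.44 and 0.98, none of them called. The values of both ends are plotted by culture.

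**Figure D3:**
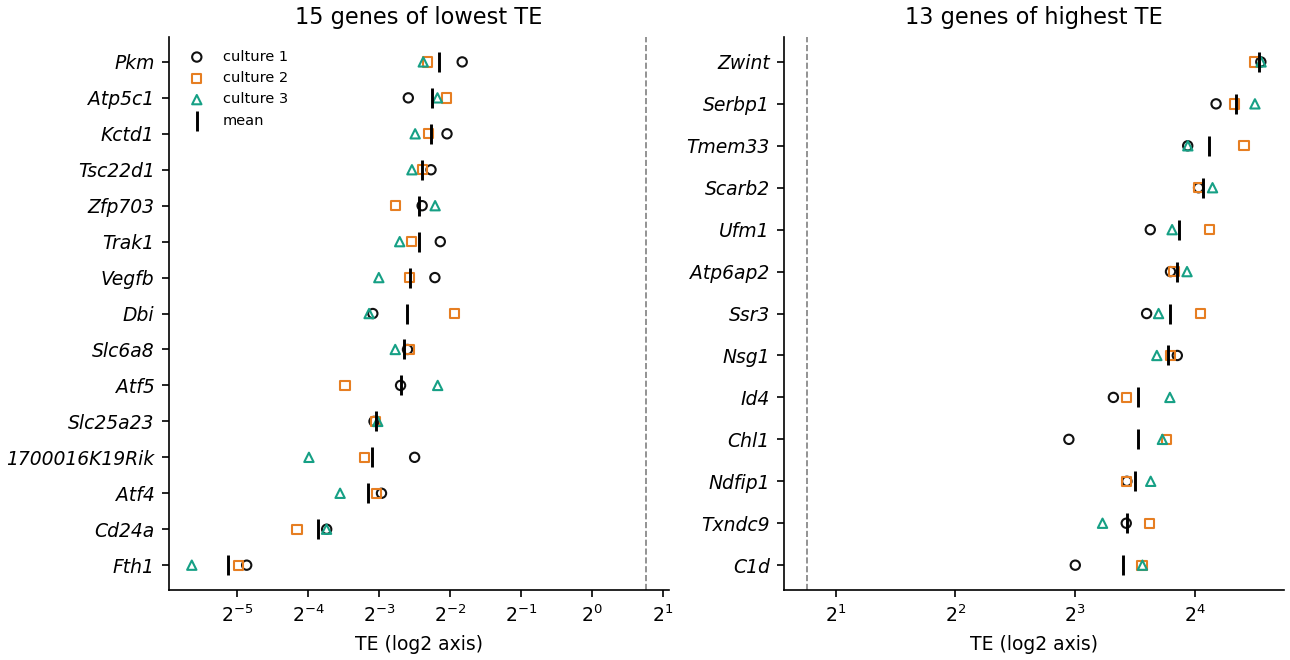
TE of 15 genes of lowest and 13 of highest mean TE in the 3 untreated cultures, on log2 axes. Open symbols are cultures, vertical ticks their mean and the dashed line the median gene at 1.69; every culture of these genes lay at least 2-fold beyond it.

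Start codons were compared between both ends, as a description with no test. Scanning ribosomes are known to select an AUG best with a purine at position -3 and a G at +4. The starts of 4 genes of high TE, all called by both denominators, and 4 of low TE are shown for comparison, with the base at -3 and the AUG with the base at +4 in capitals.
Atp6ap2 (chrX:12587887-12587901, plus strand): cgtggcAccATGGct
Zwint (chr10:72654910-72654924, plus strand): gacagaAcgATGGcg
Nsg1 (chr5:38159000-38159014, minus strand): ttcgcaAccATGGtg
Actr2 (chr11:20112847-20112861, minus strand): ggacgaAccATGGac
Fth1 (chr19:9982861-9982875, plus strand): gccgccAccATGAcc
1700016K19Rik (chr11:76000053-76000067, plus strand): cgcgggCggATGGcc
Gpx1 (chr9:108339304-108339318, plus strand): atctccAgtATGTgt
Vegfb (chr19:6987406-6987420, minus strand): gcgggcAccATGAgc
Actr2, a subunit of the actin-nucleating Arp2/3 complex with a TE of 8.70, 9.11 and 8.89, was added after its values were seen. As the Fth1 and Vegfb starts show, a low TE was also found beside an A at -3. The starts shown do not stand for all genes of either end. All 4 of high TE have an A at -3 and a G at +4, and none of the 4 of low TE does. Many other genes above with both denominators lacked this pair, and it also occurred below with both. Id4 and Chl1, also above with both denominators, had a G at -3 and an A at +4, and Hmgcs1 had a C at +4. Selenoh, below with both, had a G at both positions. Over all genes with a start context, a purine stood at -3 in 91.0% of 603 genes above, 84.0% of 557 below and 88.3% of all 4040. An A stood there in 56.6% of genes above, 40.8% of those below and 48.5% of all. A G at +4 was found in 51.7%, 47.6% and 52.2%. Among genes called by both denominators an A at -3 stood in 57.1% above and 40.8% below.

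Upstream AUG triplets were more frequent among genes of low TE. They occurred in 37.3% of genes above and 54.2% of genes below, with 46.3% in all, and in 35.0% and 59.5% of genes called by both denominators. The median TE was 1.80 in 2183 genes without an upstream AUG, 1.63 in 885 genes with 1, 1.52 in 392 genes with 2 and 1.48 in 607 genes with 3 or more. The share of genes called above was 17.4% in the first class and 9.89% in the last, and 22.9% and 11.9% with CDS-based TE. Spearman's rho with TE was only -0.11 across genes.
Footprints on the 5′UTR were compared in 3638 genes with a 5′UTR of at least 50 bases. The median footprint density on the 5′UTR was 0.219 times that on the CDS in genes above, 0.666 times in genes below and 0.323 times in all. It exceeded that on the CDS in 33.9% of genes below, 1.27% of genes above and 11.7% of all. The CDS footprints enter both this ratio and TE. Set against RNAseq instead, which also enters TE, the 5′UTR density was lower in genes below (0.388) than in all (0.559) and in genes above (1.06). Genes of low TE had fewer footprints per mRNA on the 5′UTR as well as on the CDS.

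**Figure D4:**
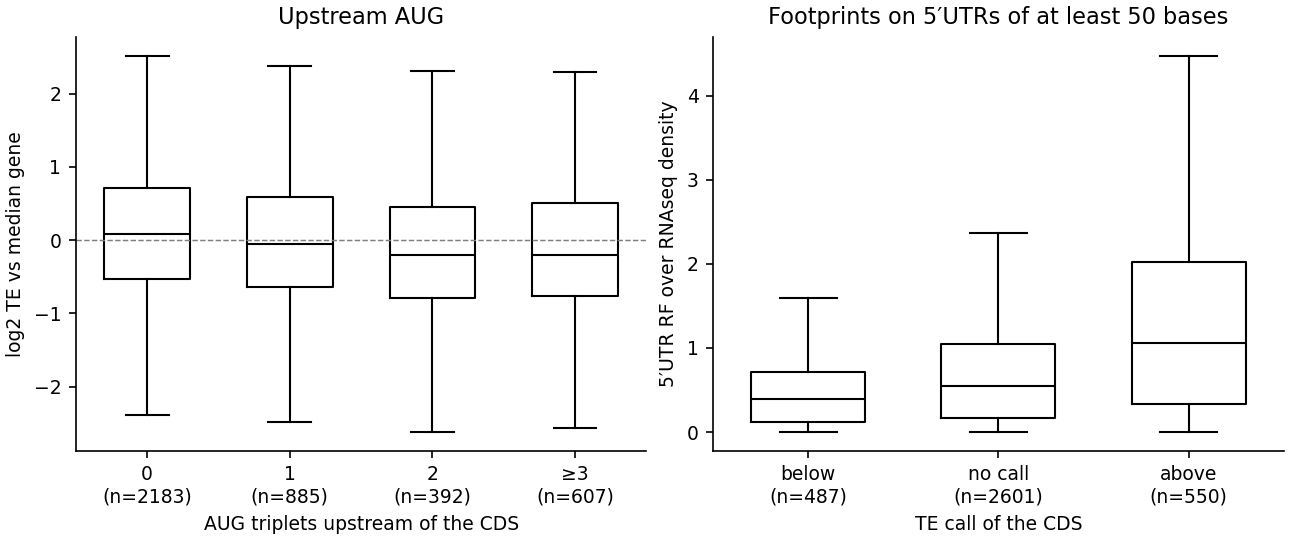
Left, log2 TE relative to the median gene by the number of AUG triplets upstream of the CDS. Right, footprint density on the 5′UTR over RNAseq density of the transcript by the call of the CDS; boxes are quartiles with the median, whiskers reach 1.5 times the box, outlying genes are not drawn, and the medians on the right rise from 0.388 below to 1.06 above.

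The length of the 3′UTR was related to TE with either denominator. The median 3′UTR was 1776 bases in genes above, 552 in genes below and 952 in all. Spearman's rho was 0.29, 0.28 with CDS-based TE, and 0.25, 0.31 and 0.30 in cultures 1 to 3. Among the 1017 genes with the shortest 3′UTRs, up to 415 bases, 5.02% were above and 22.1% below, and among the 1017 with the longest 27.0% and 7.77%. The 3′UTR is part of the length over which RNAseq reads are averaged.
The relation with GC content depended on the denominator. The CDS GC content was 49.7% in genes above and 56.4% in genes below. Spearman's rho was -0.33, and -0.21, -0.44 and -0.31 in cultures 1 to 3, but -0.07 with CDS-based TE. The median RNAseq density ratio was 1.01 in the 1017 genes with the lowest CDS GC content and 0.674 in the 1017 with the highest. CDS length had almost no monotonic relation (0.04), although 20.1% of the 1017 genes with the shortest CDS, up to 705 bases, were below. A pyrimidine tract at the 5′ end, the mark of TOP mRNAs of the translation machinery, was found in 8.77% of transcripts above, 8.50% of those below and 7.82% of all.

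Gene classes were compared by their counts and medians over 45 lists, beside 14.9% above and 13.9% below over all genes. Lists of the ER, the lysosome and membrane transport held more genes above than below. Of 14 ER chaperones and folding enzymes 8 were above and 1 below, with a median TE of 4.00, 3.25 and 3.53 in cultures 1 to 3, the highest of any list with at least 8 measured members. Pdia3, a disulfide isomerase, had a TE of 7.81 ± 1.51, Dnajc3, an ER co-chaperone, 5.06 ± 1.08 (CDS-based 0.49, no call), and Creld2 was the exception with 0.756 ± 0.113. The log2 median of the list was 1.13, and 0.76 with CDS-based TE, where 5 were above and 1 below. With both denominators 3 were above and 1 below. Of 12 amino acid transporters 5 were above and none below, with log2 medians of 0.87 and 1.42. All 5 were called by both denominators, and 7 were above by CDS-based TE. Slc38a2 had a TE of 5.99 ± 1.76 and Slc1a3, the glutamate transporter of astrocytes, 4.90 ± 0.73, while Slc7a5 had 1.60 ± 0.27, at the median gene. Of 28 lysosomal genes 9 were above and 1 below (medians 0.56 and 0.48), 8 and 1 by CDS-based TE, and 5 and none with both. Beside Scarb2, Asah1, acid ceramidase, was above with 8.14 ± 1.10. The one below was the protease Ctsh with 0.688 ± 0.130, which was not called by CDS-based TE (-0.08). Of 12 subunits of the vesicular proton pump 5 were above and 1, Atp6v1g2, below. By CDS-based TE 6 were above and none below, and Atp6v1g2 had -0.40. Beside Atp6ap2, the catalytic subunit Atp6v1a had 5.09 ± 0.41. Of 17 genes of cholesterol synthesis 6 were above, all with both denominators, and 2 below, neither of which was called by CDS-based TE. Hmgcs1, which makes HMG-CoA, had a TE of 6.53, 8.98 and 7.51. Fdft1, which makes squalene, was below at 0.357 ± 0.068, with a density ratio of 0.288 and a CDS-based log2 of -0.79, and Mvk had 0.843 ± 0.173 (CDS-based -0.99).

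Genes of the TCA cycle and of the respiratory chain lay on different sides of the median gene. Of 11 TCA genes 4 were above and none below, and 3 and 1 by CDS-based TE, with Idh3a, a subunit of isocitrate dehydrogenase, at 5.53 ± 0.33. Of 40 nuclear-encoded genes of the respiratory chain 3 were above and 12 below, and the median TE was 1.39, 1.20 and 1.24 (log2 -0.40, CDS-based -0.54). By CDS-based TE 5 were above and 14 below, and no gene was above with both. Sdhc (7.24 ± 1.32) and Uqcrfs1 (3.64 ± 0.74) were above, with CDS-based values of 0.86 and 0.78 that were not called. The lowest were Atp5c1 and Uqcrq, both with no RNAseq read on the CDS, and 6 of the 12 below were called by both denominators. Mitochondrial ribosomal proteins had 7 of 38 above and 7 below. With the CDS-based TE it was 1 above and 15 below, as for Mrpl17, whose TE of 6.52 ± 1.03 and density ratio of 9.26 gave a CDS-based log2 of -1.62. Mrpl34 was below with either (0.559 ± 0.075).
With RNAseq of the whole transcript, few TOP-type translation factors and initiation factors were called. Of 18 aminoacyl-tRNA synthetases 3 (16.7%) were above and none below, and 1 and none by CDS-based TE. Of 9 TOP-type translation factors none was called, while 3 were below by CDS-based TE, and Pabpc1, the poly(A)-binding protein, had a TE of 1.19 ± 0.12. Of 22 initiation factors 2 were above and none below, but none was above and 4 were below by CDS-based TE. Only 3 of 47 cytosolic ribosomal proteins were measured and no statement is made for them. Of 23 proteasome subunits 4 were above, Psmc6 with 9.63 ± 1.30, and 1 below. By CDS-based TE this turned to 2 above and 4 below, and Psmc6 alone was above with both.

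Zinc finger genes and nucleoporins held more genes below than above. Of 21 genes named as numbered zinc finger proteins 1 was above and 8 below, and the median TE was 0.906, 0.980 and 0.983 in the 3 cultures (log2 -0.89, CDS-based -0.85). By CDS-based TE 3 were above and 8 below, and with both denominators none was above and 5 were below. Zfp414 had a TE of 0.393 ± 0.263. Zfp706, the one above, had a density ratio of 3.66 and a CDS-based log2 of -0.94. Of 8 nucleoporins 3 were below and none above (log2 -0.68 and -0.61), and 1 of the 3 was below with both denominators. This was Pom121, an anchor of the pore, at 0.481 ± 0.080. Nup50 was at 0.542 ± 0.089, with a density ratio of 0.182 and a CDS-based log2 of 0.53 on the other side of the median gene. Of 19 forebrain transcription factors 5 were below and 1 above (5 and 3 by CDS-based TE, 3 and none with both). Of 25 mRNA decay factors 5 were below and 1 above (8 and 3 by CDS-based TE, 3 and 1 with both). In RNA processing, of 31 SR proteins, CLK kinases and hnRNPs 11 were above and 5 below, and 11 and 2 by CDS-based TE. These were only partly the same genes, as 5 were above with both denominators. Elavl1, which stabilizes mRNAs, had 8.35 ± 0.40, and Hnrnpd 7.56 ± 1.03, the latter with a density ratio of 3.96 and a CDS-based log2 of -0.18.

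Neuronal classes were mixed. Of 22 kinesins, dynein subunits and microtubule-associated proteins 6 were above and none below (7 and 2 by CDS-based TE), led by Mapt (tau) with a TE of 8.68, 8.17 and 9.66 and by the kinesin Kif1b with 6.41 ± 0.46. The light chain Dynlrb1 had the lowest, 0.876 ± 0.164, and was below by CDS-based TE (-1.82). Of 15 genes of synaptic vesicles and release 2 were above and none below, and 6 were above by CDS-based TE. Of 14 postsynaptic receptors and scaffolds 3 were above (1 by CDS-based TE) and 2 below, the scaffold Dlg4 (PSD-95) with 0.588, 0.518 and 0.704 and Nlgn2, an adhesion molecule of inhibitory synapses, with 0.781, 0.589 and 0.745. Dlg4 and Nlgn2 were below with the CDS-based TE as well (log2 -1.85 and -1.80). Of 8 voltage-gated channel genes 2 were below, Cacnb3 (0.514 ± 0.175, CDS-based -0.83 and no call) and Cacng4 (0.672 ± 0.165), and none above, and the glial potassium channel Kcnj10 had the highest value, 3.22 ± 0.12, which was above by CDS-based TE (1.47).
The sign of the median depended on the denominator for translation initiation factors (log2 0.13 and -0.30), postsynaptic genes (0.23 and -0.15), the 3 cytosolic ribosomal proteins and, by a wider margin, for tubulins with actins and for immediate early genes. Tubulins and actins had a median log2 of -1.27 with RNAseq of the transcript and 2.04 with RNAseq of the CDS, with a median density ratio of 0.0892. This holds for Tubb4a (-2.07 and 1.08), Tubb2a (-1.76 and 3.74) and Tubb3 (-0.94 and 2.15). Immediate early genes had -0.27 and 1.53, with a ratio of 0.375. Junb, with a TE of 4.74 ± 0.69, was above with both. Btg1 (-2.55 and 2.15, ratio 0.0275) changed sides, and Zfp36l1 (-2.02 and -0.67) did not.

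**Figure D5:**
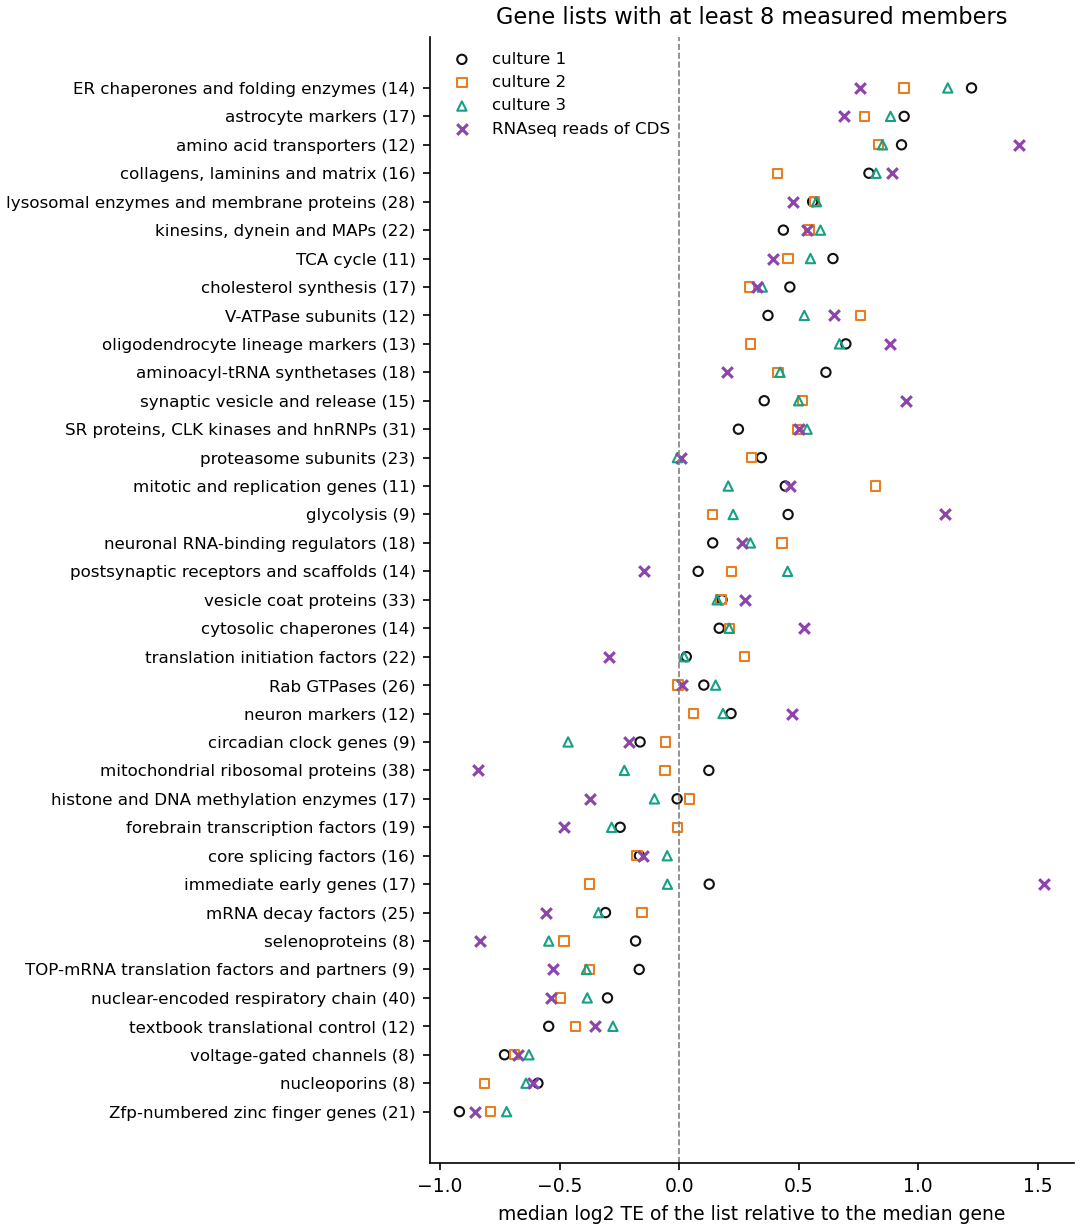
Median log2 TE relative to the median gene of each list with at least 8 measured members (number in parentheses), in the 3 untreated cultures (open symbols) and with RNAseq reads of the CDS (crosses). ER chaperones are at the top and zinc finger genes at the bottom; the largest gap between symbols and cross is that of immediate early genes.

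By cell class, with RNAseq of the whole transcript, astrocyte markers had the highest median TE of the neuron, astrocyte, oligodendrocyte and microglia lists. This order depended on the denominator and on RNAseq density. The oligodendrocyte median was higher by CDS-based TE (log2 0.88 against 0.69). Among genes with a density ratio of 0.5 to 2, astrocyte markers (0.53) lay below oligodendrocyte (0.72) and neuron (0.57) markers. Of 17 astrocyte markers 7 were above and none below (6 and none by CDS-based TE, 4 and none with both), with a median TE of 3.29, 2.90 and 2.99. Gja1 (connexin 43) had 5.42, 6.62 and 5.38, Gfap 3.81, 2.95 and 2.99, and Ndrg2 had the lowest, 1.11 ± 0.23, with a density ratio of 0.207 and a CDS-based log2 of 1.30. Of 12 neuron markers 2 were above, Stmn2 (3.55 ± 0.37, CDS-based 0.39 and no call) and Thy1 (3.596 ± 0.57), and 1 below, the RNA-binding protein Celf4 (0.693 ± 0.089, CDS-based -0.44 and no call), and their median lay at the median gene (log2 0.03). By CDS-based TE 4 were above and none below. Of 13 oligodendrocyte lineage markers 5 were above and 3 below, and 6 and none by CDS-based TE. Mbp, the myelin basic protein, whose mRNA is known to travel silent to the myelin sheath, had a TE of 0.314, 0.368 and 0.294 (log2 -2.37), with a density ratio of 0.252 and a CDS-based log2 of -0.73 that was not called. Microglia markers held both C1qa (4.84 ± 0.63) and C1qb (0.844 ± 0.095), subunits of the same complement protein, the former above and the latter at a log2 of -0.98 that was called only by CDS-based TE (-1.39).

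Genes with textbook translational control gave 1 of 12 above, 3 below and the rest nearer to the median gene. Below were Fth1, Atf4 and Mbp, and above was Ccnd1 (cyclin D1) with 3.76 ± 0.36, which was not called by CDS-based TE (0.48). Fos had a TE of 3.42, 2.81 and 3.35 (log2 0.91, CDS-based 1.22), Vegfa 2.15, 1.84 and 2.90 (0.39 and -0.16), and Myc 1.17, 0.934 and 0.860 (-0.76 and -1.20). Fos was called above and Myc below by CDS-based TE alone. Azin1, the antizyme inhibitor with 3 upstream AUGs, had 1.19, 1.22 and 1.47 (-0.40), and its 5′UTR carried 4.55 times the footprint density of its CDS. Snap25 had 1.13, 1.29 and 1.91. The genes with the most RNAseq reads, which were not scaled here to transcript length, were not extreme. Apoe had a TE of 2.44 ± 0.45, Vim 2.54 ± 0.20, Tmsb4x 2.33 ± 0.56 and the secreted protease inhibitor Cst3 1.04 ± 0.13 (below by CDS-based TE, -1.32), and Spearman's rho between TE and RNAseq reads was -0.04.

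Genes of very low footprint counts are not in these numbers, since the filter asks for footprints. A further 551 genes reached the RNAseq limit but not the RF limit, with a median TE of 0.226, and 190 of them had no CDS footprint at all. They include abundant mRNAs that every cell translates. Tuba1a is listed at 0 CDS footprints with 3518, 4302 and 4718 RNAseq reads, and Ckb and Eef1a1 are listed at 0 as well. None of these 3 had an RNAseq read on the CDS either. The RNAseq density on the CDS was under 0.1 times that on the transcript in 275 (49.9%) of the 551 genes. These 3 were chosen after their values were seen.

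The order of genes was similar in cultures treated with KCl, which were not used for the calls. Spearman's rho of mean untreated TE with the TE of each KCl culture was 0.91 and 0.92 across genes, which share length and sequence. Of the 604 genes above, 477 (79.0%) were at least 2-fold above the median gene in both KCl cultures and 600 lay above it in both. Of the 565 below, 434 (76.8%) were at least 2-fold below in both, and 560 lay below it. The effect of KCl on TE was tested in edgeR as an assay by KCl term. With an adjusted p under 0.05, TE was higher in KCl cultures for 63 of 4067 genes (1.55%) and lower for 184 (4.52%). These 247 genes became 98 with DESeq2, 16 of them higher, 79 without KCl culture 4, 10 of them higher, and 49 without KCl culture 5, 8 of them higher. TE of Fth1 was 0.0872 and 0.0895 in the KCl cultures, above all 3 untreated values (log2 difference 1.57, adjusted p = 1.09e-12). TE of Azin1, uncalled in untreated cultures, rose to 3.37 and 3.84 (1.51, adjusted p = 4.74e-11). Atp6ap2 fell to 7.52 and 10.6 (-0.69, adjusted p = 0.014). For Atf4, with 0.150 and 0.124, and for Zwint, with 31.9 and 37.0, the adjusted p was 0.69 and 0.074.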

How the data were processed

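RNAseq and RF libraries of 3 untreated and 2 KCl-treated cultures were analysed. Per the labels and the paper's methods the authors used Trimmomatic 0.32 for trimming, STAR 2.3.1z8 against rRNA, Bowtie2 2.2.2 for alignment to an mm10 transcriptome without degenerate sequence (multi-mapped reads retained) and BEDTools 2.20.1 to count reads per transcript region. The deposited values are these raw counts. Reads shared by paralogs or isoforms were not split, and antisense transcripts were not considered. Reads next to the start and stop codons, which the authors left out, are part of the counts per region and were kept. Region b was taken as the CDS, a as the 5′UTR and d as the 3′UTR from how read shares follow annotated lengths, and region c, 5.82% to 6.16% of untreated RNAseq reads, remained unnamed. Of 22534 transcripts 22172 were matched to GENCODE M21 (GRCm38) for names, lengths and sequences. Lengths are those of the annotation, not of the reduced transcriptome.

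TE was fitted with edgeR 4.0.16 (R 4.3.3) on counts, with lengths as offsets, TMM within each assay and culture as a block. By the labels and the paper's methods, both libraries of a number were taken to come from the same lysate. Deviations of same-numbered libraries from their assay means correlated at -0.05, -0.07 and 0.09. Those of differently numbered libraries correlated at between -0.07 and 0.12, so these values do not show the pairing. The standard error was approximated as the size of the log2 value divided by the root of F. The fits were tested on simulated counts. The alternatives were DESeq2 1.42.0, limma 3.58.1, other normalizations, filters, denominators and transcripts, no block, and leaving out cultures. Intervals and p-values cover these cultures, which may share pups and a preparation. Precision is limited by the RF depth of culture 3. The genes and lists were chosen with earlier results of these data known. Named are the 15 genes of highest and lowest mean TE that were called in all 3 cultures (at least 50 footprints or 100 RNAseq reads). Also named are genes from the 2 highest and 2 lowest of each list, the genes of textbook control and the 5 with the most RNAseq reads. Names outside the rule are marked, and some genes that the rule names are not reported here.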

Additional observations from a re-analysis of the deposited data

Results flagged for a closer look

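The following genes were taken only from those named in the text, not from all genes tested. Their TE differed between untreated and KCl cultures in the test of the interaction itself (edgeR, adjusted p under 0.05), with 3 against 2 cultures. Over all genes 63 were higher and 184 lower in KCl cultures, whereas most of those listed here were higher. TE was higher in KCl cultures by a log2 of 1.57 for Fth1, 1.51 for Azin1, 1.28 for Uqcrq, 0.90 for Mrpl34, 0.78 for Celf4, 0.75 for Snap25, 0.69 for Fos and 0.62 for Slc1a3. It was lower by a log2 difference of -1.45 for 1700016K19Rik, -0.82 for Trak1, -0.76 for Dbi and -0.69 for Atp6ap2. The adjusted p was 1.09e-12 for Fth1, 4.74e-11 for Azin1 and between 0.00255 and 0.0487 for the other 10 genes. For each of these genes the 2 KCl values and the 3 untreated values did not overlap. For Uqcrq no RNAseq read fell on the CDS, and for 1700016K19Rik culture 3 held 7 footprints. Groups of 3 were not searched for outlying cultures.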

How the results depend on the processing

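The counts of 604 genes above and 565 below the median gene stayed within 1.5 times under DESeq2, limma, both other normalizations, the stricter filter, the longest CDS and the median gene of the same CDS length decile. Without the block for the pairing by culture they were 605 and 563, and 239 genes differed with KCl. Without 1 culture the counts were between 575 and 643 above and between 549 and 590 below. They moved to 1792 and 1779 without an RPKM filter, 985 and 942 over all transcripts, 1072 and 1063 with a fold limit of 1.5, and 1457 and 1413 with none. With a filter on RNAseq alone 915 genes were below. The added genes lowered the median gene, so that relative TE moved by a log2 of 0.17. With both RNAseq denominators, an alternative chosen after seeing the data, the counts were 309 and 336, and 371 genes with an even RNAseq density (0.5 to 2) were below. The count of 247 genes that differed with KCl was 98 with DESeq2 and between 49 and 323 without 1 culture. It was 79 without KCl culture 4 and 49 without KCl culture 5, so that it rests on both.

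Among the named genes, CDS RNAseq reads reversed the log2 TE of Serbp1 (-0.015), Zfp703 (1.78), Pkm (2.70), Ndrg2 (1.30), Zfp706 (-0.94), Nup50 (0.53), Tubb4a (1.08), Tubb2a (3.74), Tubb3 (2.15), Btg1 (2.15), Mrpl17 (-1.62), Hnrnpd (-0.18), Apoe (-0.21) and Vegfa (-0.16). Slc7a5 became 0.082 with the RNAseq filter and lay between -0.166 and 0.081 without 1 culture, above 0 without culture 2. The denominator also ended 18 calls and added 8. Of 45 list medians, library totals moved none by more than the spread between cultures, CDS reads 31 and the RNAseq filter 29. The causes were not tested.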
